A study of Populus alba x Populus glandulosa with 18 samples.

Results

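*COBL4*, also named *IRX6*, encodes a COBRA-like protein that is held at the outer face of the plasma membrane by a glycosyl-phosphatidylinositol anchor. Its poplar copies *Potri.004G117200* and *Potri.015G060100* were taken from the expression table by their gene identifiers, 2 of 42950 gene models. In *P. trichocarpa* v3.1 the former spans 10850584 to 10852459 on chromosome 4 and the latter 8240378 to 8242930 on chromosome 15, and they are called the chromosome 4 copy and the chromosome 15 copy. The symbol *COBL4* is also carried by *Potri.012G062200* on chromosome 12, which had 0 counts in all 18 libraries, and by *Potri.015G060200*, which had 13 counts in total. Neither of these 2 models passed the filter on low counts in any comparison.

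The secondary cell wall of wood is laid down inside the primary wall after cells stop expanding, and cellulose is its main load-bearing polymer. Cellulose of this wall is made by complexes of CESA4, CESA7 and CESA8. In Arabidopsis, *irx6* mutants that lack COBL4 have weak stems with reduced cellulose, and the homologues *BC1* of rice and *BK2* of maize are known from brittle-stem mutants. How COBRA-like proteins act on cellulose is not settled, although they are known to affect the order and crystallinity of the microfibrils.

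The libraries came from 84K poplar, a hybrid of *P. alba* and *P. glandulosa*, and from 84K trees that overexpress *PagDET2* under the 35S promoter, which is active in most tissues. *DET2* encodes a steroid reductase of brassinosteroid synthesis. All trees were 2 months old and untreated. Each of the 6 groups had 3 libraries, from PS, the apex pooled with internodes 1 to 3, from BA, the bark with differentiating phloem and cambium of internodes 5 to 12, and from XY, the xylem surface of the same internodes. The sample labels call these domains shoot apical meristem, cambium and xylem, and give DET2 overexpression as a genotype without the line it came from. A tree may have given libraries to more than 1 domain. Because RNA was taken from whole tissue, fewer cells of a type and less RNA per cell cannot be told apart.

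Library totals ranged from 7983668 to 12052409 counts. *DET2* (*Potri.016G110600*) was at 5.02 to 10.1 FPKM, counts scaled by gene length and library total, in the 84K libraries and at 1738 to 3139 FPKM in the *PagDET2*-OE libraries, as the labels state. Marker genes were then set beside the labelled tissues. Epidermis and cuticle genes summed to 244 to 256 FPKM in 84K PS and to at most 14.2 in the other 84K domains. Phloem genes summed to 2102 to 2237 FPKM in 84K BA, 601 to 625 in 84K PS and 483 to 509 in 84K XY. Vessel and cell death genes summed to 1734 to 1889 FPKM in 84K XY, 250 to 260 in 84K PS and 21.8 to 25.5 in 84K BA. Shoot meristem genes summed to 220 to 224 FPKM in 84K PS and to 267 to 271 in 84K BA, and both copies of *WUS*, which marks the organizing centre of the meristem, had 0 FPKM in 84K PS.

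Both copies had their highest level in XY, and they differed most in PS. Of the chromosome 4 copy, 0 counts were found in each of the 6 PS libraries. A count of 0 allows up to 3 counts, which here is 0.207 to 0.246 FPKM (counting error only). In contrast, the chromosome 15 copy was detected in every PS library, at 7.51, 7.64 and 8.70 FPKM in 84K and at 8.67, 8.29 and 10.9 FPKM in *PagDET2*-OE lines. Over the 6 PS libraries it had 1044 counts, against 0 for the chromosome 4 copy. Reads of the chromosome 15 copy that were assigned to the chromosome 4 copy in PS were therefore at most 0.287% of its counts.

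In BA, the chromosome 4 copy was at 4.04, 6.16 and 6.16 FPKM in 84K and at 8.54, 8.04 and 11.5 FPKM in *PagDET2*-OE lines. These values rest on 48 to 99 counts per 84K library and 110 to 156 counts per *PagDET2*-OE library. For the chromosome 15 copy, BA held 26.0, 28.2 and 30.1 FPKM in 84K and 16.4, 17.4 and 16.9 FPKM in *PagDET2*-OE lines. In every BA library the chromosome 15 copy was thus above the chromosome 4 copy. The *PagDET2*-OE libraries lay above the 84K libraries for the chromosome 4 copy and below them for the chromosome 15 copy, with no overlap in either case.

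In XY, the chromosome 4 copy was at 250, 257 and 257 FPKM in 84K and at 537, 566 and 612 FPKM in *PagDET2*-OE lines, so that each *PagDET2*-OE library had more than any 84K library. XY levels of the chromosome 15 copy were 517, 517 and 550 FPKM in 84K and 552, 552 and 621 FPKM in *PagDET2*-OE lines. Its groups met but did not overlap. Ordered by mean FPKM in XY, the chromosome 4 copy stood 329th among all gene models in 84K and 113th in *PagDET2*-OE lines, whereas the chromosome 15 copy stood 111th in both.

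**Figure D1:**
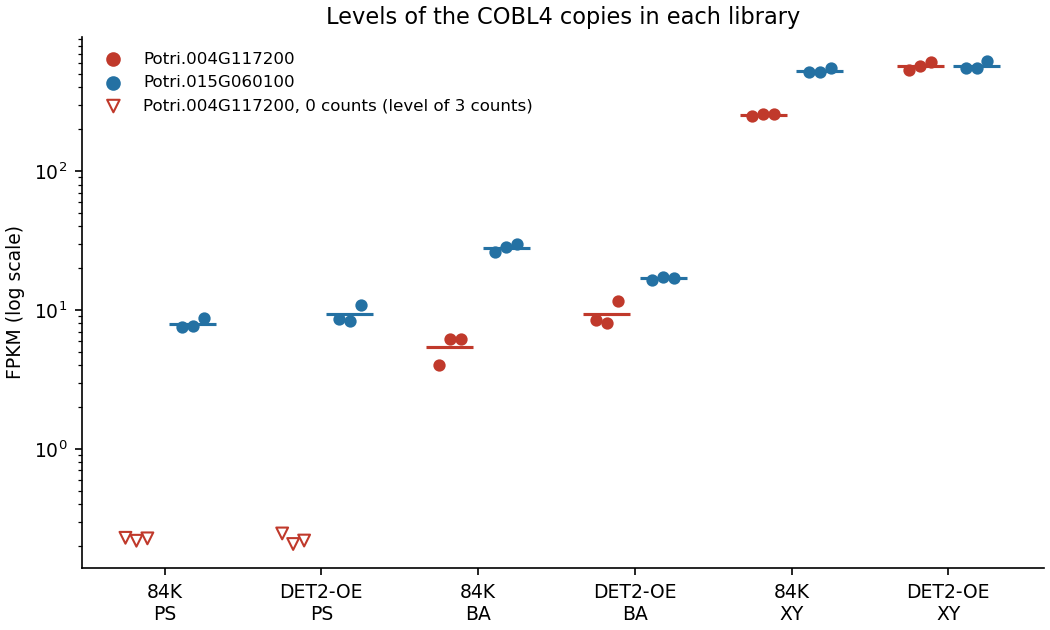
FPKM of the chromosome 4 copy (red) and the chromosome 15 copy (blue) on a log axis in each of the 18 libraries, with bars at the group means (n = 3). Open triangles mark the level of 3 counts in the 6 PS libraries where the chromosome 4 copy had 0 counts; red points meet blue points only in *PagDET2*-OE XY.

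The fall from XY to the other domains was steeper for the chromosome 4 copy. In 84K its mean FPKM was 255 ± 3.82 in XY (SD, n = 3) and 5.45 ± 1.22 in BA, and BA was 2.14% of XY. In the same libraries the chromosome 15 copy was at 528 ± 19.5 FPKM in XY and 28.1 ± 2.02 in BA, and BA was 5.32% of XY. In *PagDET2*-OE lines BA was 1.64% of XY for the chromosome 4 copy and 2.94% for the chromosome 15 copy. XY exceeded PS at least 1113-fold in 84K and at least 2324-fold in *PagDET2*-OE lines for the chromosome 4 copy, taking 3 counts per library as the floor in PS. For the chromosome 15 copy, PS was 1.51% of XY in 84K and 1.62% in *PagDET2*-OE lines.

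Domains were compared within each genotype by edgeR's quasi-likelihood test, with p-values adjusted (Benjamini-Hochberg) over all tested genes. Here and in the interaction tests below, libraries were taken as independent, although a tree may have given more than 1. Of 24986 genes tested in 84K, 71.9% were called between XY and BA at an adjusted p of at most 0.05, so a call alone says little here. The log2 fold change of XY over BA in 84K was 6.10 (SE 0.117) for the chromosome 4 copy and 4.80 (SE 0.0703) for the chromosome 15 copy. Only 0.848% of the genes had a log2 fold change at least as high as the chromosome 4 copy, and 1.88% at least as high as the chromosome 15 copy. In *PagDET2*-OE lines, where 76% of genes were called, the log2 fold changes of XY over BA were 6.58 (SE 0.143) and 5.74 (SE 0.0989). All 4 values had edgeR adjusted p-values of at most 5.96e-11. Against PS, where 78.7% of genes were called in 84K and 79.8% in *PagDET2*-OE lines, the log2 fold change of XY was 6.63 (SE 0.0789) and 6.58 (SE 0.104) for the chromosome 15 copy, with edgeR adjusted p-values of at most 4.12e-18. PS lay below BA for the chromosome 15 copy by a log2 fold change of -1.83 (SE 0.0725, edgeR adjusted p = 4.27e-14) in 84K and of -0.84 (SE 0.0954, edgeR adjusted p = 8.64e-07) in *PagDET2*-OE lines, comparisons in which 67.9% and 70.3% of genes were called.

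These tests scale libraries by TMM, whereas the deposited FPKM are scaled by library total. On log2(FPKM + 0.1) the median gene was lower in XY than in BA by a log2 difference of -0.64 in 84K and of -0.76 in *PagDET2*-OE lines, against -0.08 and -0.14 with TMM. Levels in XY relative to BA and PS are therefore lower on the FPKM scale for every gene, and comparisons of the copies with each other within a library are not affected.

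Overexpression of *PagDET2* was followed by different changes in the 2 copies. Transcripts of the chromosome 4 copy were higher in BA and XY of *PagDET2*-OE lines. Those of the chromosome 15 copy were lower in BA, slightly higher in XY, and in PS their change did not pass the test. Of the 5 comparisons tested for the copies, only that of the chromosome 4 copy in XY met the study's thresholds for a DEG, at least 2-fold with an adjusted p of at most 0.05, thresholds met by 1.01% of genes in PS, by 1.24% in BA and by 3.1% in XY.

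In XY, the chromosome 4 copy rose from 255 ± 3.82 to 572 ± 37.7 FPKM (SD, n = 3 each), a log2 fold change of 1.22 (SE 0.0528, adjusted p = 1.94e-11 by edgeR's quasi-likelihood test). Of 21273 genes tested in XY, 10% were called higher, 1.15% were called at least 2-fold higher, and 0.917% had a log2 fold change at least this large. By comparison, the chromosome 15 copy moved from 528 ± 19.5 to 575 ± 40.1 FPKM, a log2 fold change of 0.18 (SE 0.0532, edgeR adjusted p = 0.0252). The latter call was lost without 84K XY replicate 1 (log2 fold change 0.16, edgeR adjusted p = 0.112) and without 84K XY replicate 2 (0.16, edgeR adjusted p = 0.12). Groups that did not overlap in FPKM and were higher in *PagDET2*-OE lines were found for 13.4% of the genes tested in XY.

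In BA, the chromosome 15 copy fell from 28.1 ± 2.02 to 16.9 ± 0.472 FPKM, a log2 fold change of -0.74 (SE 0.0789, adjusted p = 5.88e-05 by edgeR's quasi-likelihood test). Of 23651 genes tested in BA, 5.34% were called lower and 1.51% had a log2 fold change at least this low. Conversely, the chromosome 4 copy rose from 5.45 ± 1.22 to 9.37 ± 1.89 FPKM, a log2 fold change of 0.77 (SE 0.191, edgeR adjusted p = 0.0216), in a comparison where 6.19% of genes were called higher. This call rested on few counts and was lost without 84K BA replicate 1 (log2 fold change 0.60, edgeR adjusted p = 0.0884), without 84K BA replicate 2 (0.85, 0.0557) or without *PagDET2*-OE BA replicate 3 (0.57, 0.0553). Groups in BA did not overlap in FPKM for 16.5% of genes in the higher direction and for 15.2% in the lower direction.

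In PS, the chromosome 15 copy was at 7.95 ± 0.652 FPKM in 84K and 9.29 ± 1.42 FPKM in *PagDET2*-OE lines. The groups overlapped, and the log2 fold change of 0.24 (SE 0.124) did not pass edgeR's quasi-likelihood test (adjusted p = 0.215), while 15% of the 23971 genes tested in PS were called in either direction. No test of the chromosome 4 copy was possible in PS, where neither genotype had a count.

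The effect of genotype on the chromosome 15 copy differed between domains. As an interaction term in 1 fit of all 18 libraries, its log2 fold change was higher in XY than in BA by 0.96 (SE 0.113, adjusted p = 2.16e-06 by edgeR's quasi-likelihood test), and higher in PS than in BA by 0.996 (SE 0.129, edgeR adjusted p = 1.87e-05). Interactions were called for 13.3% of the 25726 genes between XY and BA (6.9% higher in XY), for 9.27% between PS and BA and for 10.1% between XY and PS. XY and PS differed by -0.04 (SE 0.123, edgeR adjusted p = 0.921) for this copy. For the chromosome 4 copy, the effect in XY exceeded that in BA by 0.50 (SE 0.214), which did not pass edgeR's test (adjusted p = 0.158). Without 84K BA replicate 1 this difference was 0.67 (edgeR adjusted p = 0.0158), and without *PagDET2*-OE BA replicate 3 it was 0.69 (edgeR adjusted p = 0.0128).

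The ratio of the copies was then compared within each library, which leaves the scaling between libraries out of the measure. In BA, the chromosome 4 copy made up 13.4%, 17.9% and 17.0% of the summed FPKM of the copies in the 84K libraries, and 34.2%, 31.7% and 40.6% in the *PagDET2*-OE libraries. In XY its share was 32.6%, 33.2% and 31.8% in 84K and 49.3%, 50.7% and 49.6% in *PagDET2*-OE lines. In PS its share was 0%, and 3 counts of the chromosome 4 copy would have allowed up to 2.96%. Thus the chromosome 15 copy was the more abundant one everywhere except in XY of *PagDET2*-OE lines, where FPKM of the copies were about equal, at a mean ratio of 0.995 ± 0.0276 (SD, n = 3).

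**Figure D2:**
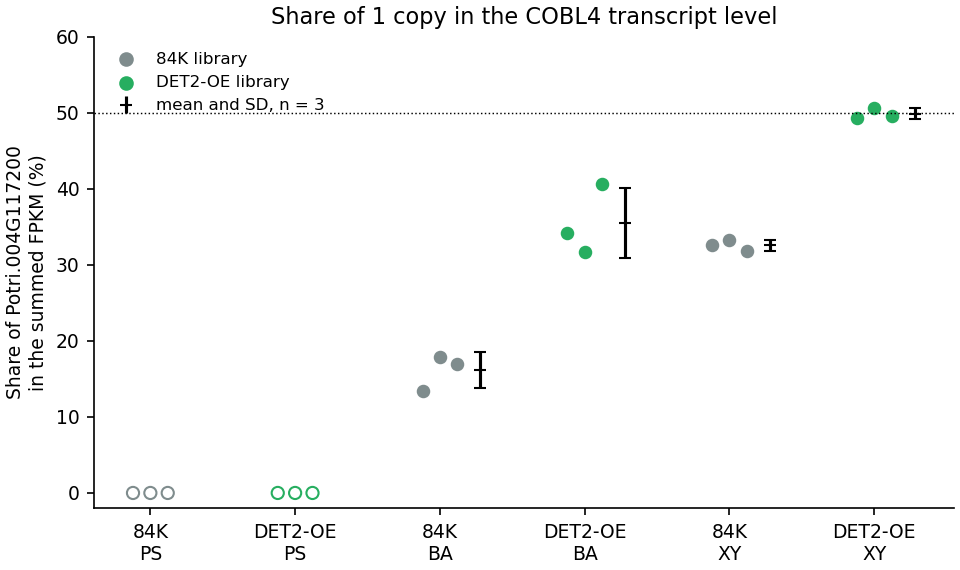
Share of the chromosome 4 copy in the summed FPKM of both copies, in percent, for each of the 18 libraries, with mean and SD (n = 3) beside the points. Open circles are PS libraries with 0 counts of the chromosome 4 copy; the dotted line marks equal FPKM of the copies, reached only in *PagDET2*-OE XY.

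The mean log2 ratio of the chromosome 4 copy over the chromosome 15 copy was -2.39 ± 0.262 in 84K BA and -0.87 ± 0.288 in *PagDET2*-OE BA (SD, n = 3 each). It was -1.05 ± 0.0473 in 84K XY and -0.01 ± 0.0398 in *PagDET2*-OE XY. The genotypes differed by 1.52 in BA and by 1.04 in XY with no overlap of the libraries. Each of these contrasts gave p = 0.1 in a two-sided exact permutation test, the smallest p that 3 libraries against 3 allow. Over both domains, with genotypes permuted within the domain, the ratio was 1.28 higher in *PagDET2*-OE lines (p = 0.005, the smallest possible of 400 arrangements, adjusted p = 0.01 over 4 exact permutation tests). With domains permuted within the genotype, the ratio was 1.10 higher in XY than in BA (exact permutation p = 0.005, adjusted p = 0.01). Both tests take the BA and XY libraries as independent, although a tree may have given both. If each tree gave both, genotypes could be permuted only by tree and domains only within a tree. The exact permutation test of genotype over both domains could then not go below p = 0.1. Whether the shift of the ratio with genotype was larger in BA than in XY was not tested. Comparisons with PS gave no ratio, as the chromosome 4 copy was at 0 there.

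The summed FPKM of the copies moved in opposite directions in BA and XY. It was 30.1 to 36.2 in 84K BA and 25.0 to 28.4 in *PagDET2*-OE BA. In XY it was 767 to 807 in 84K and 1089 to 1233 in *PagDET2*-OE lines. The higher sum in XY came mostly from the chromosome 4 copy, whose mean rose from 255 to 572 FPKM while that of the chromosome 15 copy moved from 528 to 575.

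The other genes of cellulose deposition in the secondary wall gave a measure for the chromosome 15 copy. The list held 13 genes for the secondary wall cellulose synthases, *CTL2*, *KOR1* and *CSI1*, of which 10 passed the filter. The list was not uniform. Both *CSI1* copies and the *KOR1* copy *Potri.001G078900* had BA at 34.8% to 78.2% and PS at 40.8% to 76.1% of XY in 84K. They were not called in BA or XY. In BA of *PagDET2*-OE lines 6 of the 10 were lower and 0 were higher, with a median log2 fold change of -0.37 against 0.00 over all genes tested. Of all genes tested in BA, 5.34% were called lower and 6.19% higher. In XY 6 were higher and 0 were lower, with a median of 0.18, where 10% of all genes were called higher and 9.34% lower. At an unadjusted p under 0.05 or with DESeq2 the other direction also had 0 in both domains. Over all other settings, and with each replicate left out, up to 1 gene was called lower in XY and 0 were called higher in BA. In BA the log2 fold changes were -0.59 for *CESA4*, -0.69 and -0.36 for copies of *CESA7*, -0.57 and -0.39 for copies of *CESA8* and -0.50 for *CTL2*, a chitinase-like protein without which Arabidopsis stems form less cellulose (edgeR adjusted p-values from 3.24e-05 to 0.0112). With -0.74 the chromosome 15 copy was below each of the 10, although it was not tested against them. A copy of *KOR1* (*Potri.003G151700*), a membrane endoglucanase of cellulose synthesis, did not pass in BA, with -0.13 (edgeR adjusted p = 0.127). In XY *CTL2* and both copies each of *CESA7* and *CESA8* were higher by log2 fold changes of 0.15 to 0.33. *CESA4* at -0.06 did not pass (edgeR adjusted p = 0.31), and *KOR1* was higher by 0.22. At 0.18 the chromosome 15 copy lay within this range, and at 1.22 the chromosome 4 copy lay above it.

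Fasciclin-like arabinogalactan proteins of the *FLA11* and *FLA12* type are cell surface glycoproteins abundant in wood fibres and tension wood, and most of them rose with the chromosome 4 copy in XY. The list held 25 genes, many of them neighbours of high similarity on chromosomes 13 and 19, whose counts can be split between copies. In XY of *PagDET2*-OE lines 21 of 24 tested were higher and 0 were lower, with a median log2 fold change of 0.87 against 0.00 over all genes tested. Of all genes tested in XY, 10% were called higher and 9.34% lower. With DESeq2, 19 were higher and 0 lower, and at an unadjusted p under 0.05, 22 and 0. In BA 5 of 17 were higher and 2 were lower, against 6.19% and 5.34% of all genes, and 3 were higher without 84K BA replicate 2. For *FLA12*, 7 of 8 genes tested were higher in XY, with a median of 0.90, and 4 of 7 in BA, with a median of 0.52 and a range of 0.25 to 0.80. No *FLA12* gene passed the filter in PS, where their means were between 0 and 0.448 FPKM. *FLA11* was more divided, and *Potri.006G129200* was lower in BA by -0.73 (edgeR adjusted p = 1.89e-04) and higher in XY by 0.45 (edgeR adjusted p = 3.38e-05), as the chromosome 15 copy was.

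**Figure D3:**
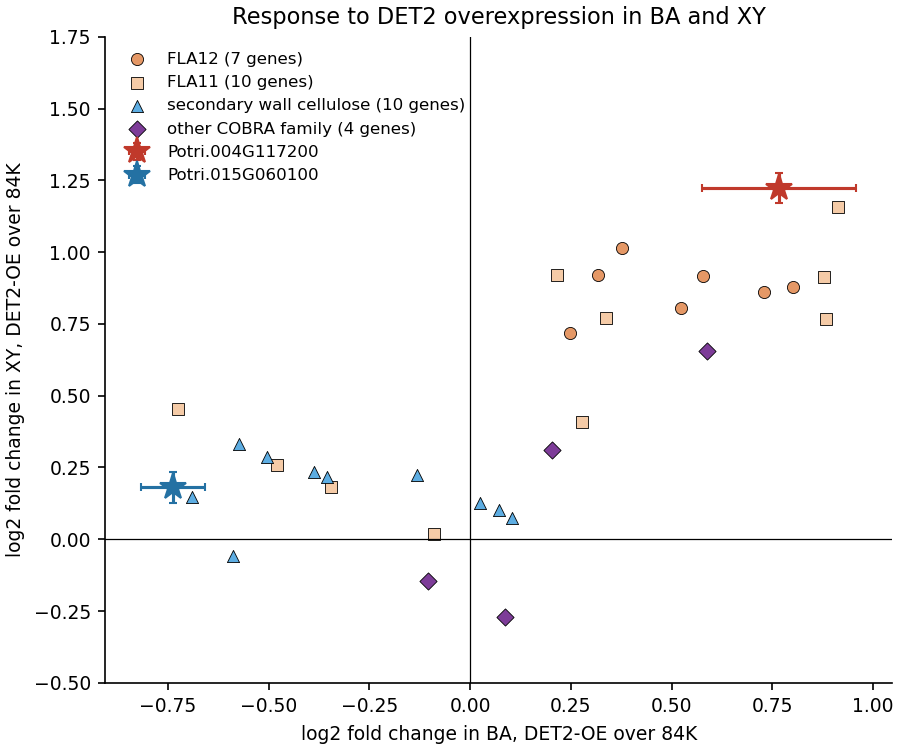
Log2 fold change of *PagDET2*-OE over 84K in BA (x axis) and XY (y axis), from edgeR, for the chromosome 4 copy (red star) and the chromosome 15 copy (blue star) with SE bars, and for 7 *FLA12*, 10 *FLA11*, 10 secondary wall cellulose and 4 other COBRA family genes tested in both domains. The chromosome 4 copy lies at 0.77 and 1.22 near *FLA12* genes, and the chromosome 15 copy at -0.74 and 0.18 near the cellulose genes.

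The genes with the most similar profile over the libraries also differed between the copies. Over all 18 libraries, the 5 genes with the highest Pearson correlation of log2 CPM with the chromosome 4 copy were all *FLA12* (*Potri.019G122600*, *Potri.013G151500*, *Potri.009G012200*, *Potri.013G151432* and *Potri.004G210600*), with r from 0.997 to 0.998 among 19150 genes. For the chromosome 15 copy the first was *CTL2* (*Potri.010G141600*, r = 0.999). It was followed by a ubiquitin-specific protease-related gene (*Potri.010G252400*), *OMT1* (*Potri.012G006400*), which acts in the synthesis of syringyl lignin, a nucleotide-sugar transporter (*Potri.004G211900*) and an oxidoreductase (*Potri.008G161600*). The copies correlated with each other at r = 0.949. Both copies had high r with both lists. With 18 *FLA11* and *FLA12* genes the median and highest r were 0.981 and 0.998 for the chromosome 4 copy. For the chromosome 15 copy they were 0.964 and 0.9985. With 10 secondary wall cellulose genes they were 0.949 and 0.989 for the chromosome 4 copy and 0.988 and 0.999 for the chromosome 15 copy. These points share 3 domains that differ by orders of magnitude, so high r is common, and the values describe likeness of profile only.

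With the group means taken out, which leaves the scatter between libraries of 1 group, the copies correlated at r = 0.619 over the 12 BA and XY libraries. The PS libraries hold no count of the chromosome 4 copy and so no scatter to compare, and with them r was 0.373 over 18 libraries. Over all 18, the genes nearest to the chromosome 4 copy, whose values rest on 12 libraries with counts, were *AMY3*, *Potri.007G086600*, *iqd17*, *CIP7* and *XBAT33* (r = 0.865 to 0.915), and those nearest to the chromosome 15 copy were *Potri.T091700*, *TUA4*, an alpha-tubulin, *BOP2*, *Potri.005G108900* and the sucrose synthase *SUS4* (r = 0.935 to 0.945). The gene sets of the 2 measures did not share a member for either copy. The r of these nearest genes were the highest among 19150 genes over few libraries. They were not tested against chance and describe likeness of scatter only.

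Levels relative to XY describe the profiles without a correlation. In 84K, BA was 1.37% to 2.41% of XY for the 7 *FLA12* genes with at least 10 FPKM in XY, and PS was at most 0.0296% of XY. With 2.14% in BA the chromosome 4 copy lay within the former range. Its 0 counts do not place it in the latter, since 3 counts in an 84K PS library would be 0.0856% to 0.0899% of its XY level. For *CTL2* and the 5 secondary wall *CESA* genes BA was 4.65% to 9.44% and PS 0.885% to 3.39% of XY. The chromosome 15 copy, with 5.32% and 1.51%, lay within those. *KOR1* (*Potri.003G151700*) of the same list was outside them at 13.1% and 7.48%, as were the other *KOR1* copy and *CSI1*. Over 18 *FLA11* and *FLA12* genes BA was 0.821% to 7.87% and PS 0% to 3.17% of XY, which also held the chromosome 15 copy. Ranges in BA of xylan genes (1.64% to 410%) and lignin genes (0% to 25.9%) held both copies.

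**Figure D4:**
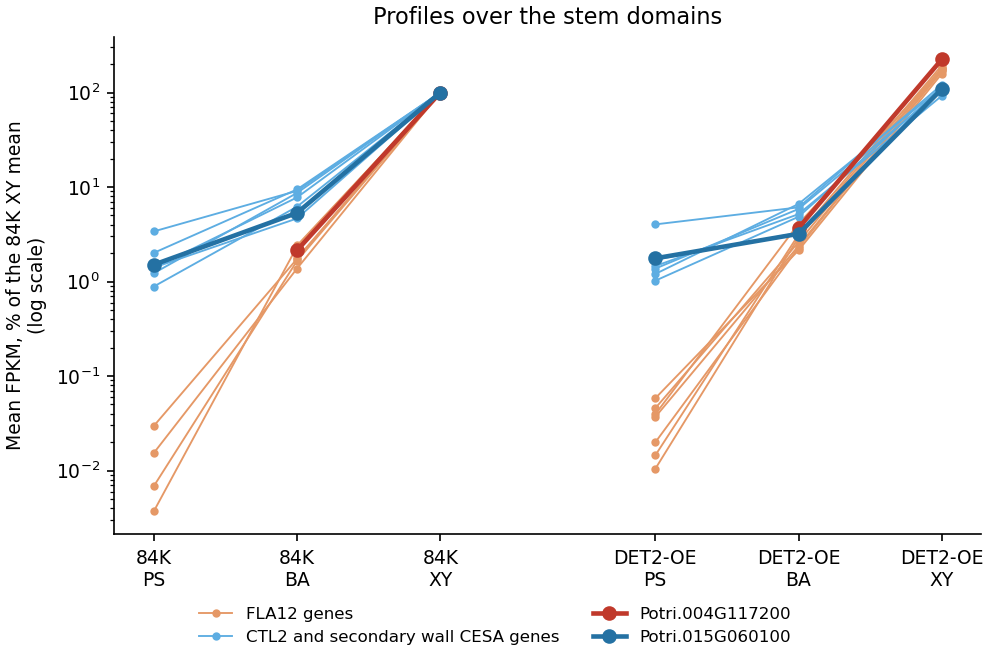
Mean FPKM (n = 3) of each gene in the 6 groups as percent of its own 84K XY mean, on a log axis, for both *COBL4* copies, 7 *FLA12* genes and 6 *CTL2* and *CESA* genes; means of 0 are not drawn. In PS the chromosome 15 copy runs with *CTL2* and *CESA*, and the chromosome 4 copy has no point. Genes of *FLA11*, *KOR1* and *CSI1* are not drawn.

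Other groups of secondary wall genes also had members that were lower in BA, as the chromosome 15 copy was. In BA of *PagDET2*-OE lines 12 of 29 xylan genes, 21 of 44 lignin genes and 11 of 31 regulators were lower, and 1 gene of these 3 lists, a lignin gene, was higher, against 5.34% of all genes called lower and 6.19% called higher. With DESeq2, 10, 18 and 8 genes were lower and 0 were higher. *C4H* (*Potri.013G157900*) of phenylpropanoid synthesis had a log2 fold change of -0.65, *OMT1* of -0.40, *IRX10* (*Potri.001G068100*) of xylan synthesis of -0.38 and the regulator *KNAT7* of -0.36 in BA, all with an edgeR adjusted p of at most 0.0357. *UXS6* (*Potri.010G207200*) and *SND2* (*Potri.017G016700*), at -0.07 and -0.26, did not pass. In XY, 17 of 30 xylan genes were higher and 0 lower, 13 of 49 lignin genes were higher and 5 lower, and 6 of 38 regulators were higher and 1 lower, against 10% of all genes called higher and 9.34% called lower. With DESeq2 these counts were 16 and 0, 11 and 4, and 4 and 1. Single libraries decided some of them. Regulators called lower in BA were 6, 5 and 7 without 84K BA replicate 1, 84K BA replicate 2 and *PagDET2*-OE BA replicate 1. Lignin genes called higher in XY were 7 and 8 without 84K XY replicates 1 and 2, and regulators called higher in XY were 2, 3 and 2 without 84K XY replicate 1, 84K XY replicate 2 and *PagDET2*-OE XY replicate 2. In XY, *IRX10* rose by 0.48 and *UXS6*, which makes the xylan precursor UDP-xylose, by 0.45, both above the chromosome 15 copy and below the chromosome 4 copy. *KNAT7* rose by 0.30, and *SND2* was at 0.03.

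Of 12 primary wall cellulose synthases tested, 4 were higher and 0 lower in BA of *PagDET2*-OE lines, 5 were lower and 0 higher in PS, and 2 were lower and 0 higher in XY. Over all genes, 6.19% were called higher in BA, and 6.9% in PS and 9.34% in XY were called lower. With DESeq2 the counts of the same 3 comparisons were 4, 4 and 2 in these directions and 0 in the others, and at an unadjusted p under 0.05 only XY had a gene in the other direction. Those lower in PS were 3 without *PagDET2*-OE PS replicate 1 or 2. *CESA6* (*Potri.007G076500*) rose by 0.38 in BA, and *CESA1* (*Potri.006G251900*) fell by 0.24 in PS and by 0.30 in XY on the log2 scale.

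Levels of cell type markers moved with some of these results. Over all genes tested, 6.19% were called higher and 5.34% lower in BA, and 10% higher and 9.34% lower in XY. In BA, where the copies changed in opposite directions, vessel and cell death genes summed to 21.8 to 25.5 FPKM in 84K and 24.6 to 25.0 FPKM in *PagDET2*-OE lines, and 0 of 4 tested were called by edgeR or DESeq2 (1 higher at an unadjusted p under 0.05 in edgeR). For the 9 of these markers with at least 10 FPKM in 84K XY, 84K BA was 0% to 28.1% of XY, with a median of 0.276%, against 2.14% and 5.32% for the *COBL4* copies. *XCP2* (*Potri.005G256000*), a protease of dying vessels, was at the median, and *XSP1* (*Potri.014G074500*) and *BFN1* (*Potri.011G044500*), named after their values were seen, were highest at 28.1% and 13.5%. In XY these markers summed to 1734 to 1889 FPKM in 84K and 2172 to 2366 FPKM in *PagDET2*-OE lines, and 5 of 9 tested were higher and 1 lower (3 higher without 84K XY replicate 1 or *PagDET2*-OE XY replicate 2). *XCP2* rose by 0.20 (*Potri.005G256000*) and 0.72 (*Potri.002G005700*) in XY. Phloem markers in XY summed to 483 to 509 FPKM in 84K and 404 to 430 in *PagDET2*-OE lines, with 4 of 6 lower, among them *SUC2* (*Potri.019G085800*) by -0.17 and *PP2-A10* (*Potri.015G120200*) by -0.97 (1 lower without 84K XY replicate 2 and 2 without *PagDET2*-OE XY replicate 3). In BA, 4 of 19 phloem markers were higher and 2 lower, with the same *SUC2* copy higher by 0.19, and leaving out 84K BA replicate 1 or 2 or *PagDET2*-OE BA replicate 2 or 3 left 0, 1, 2 and 2 higher. Of 19 cambium markers tested, 1 was higher and 0 lower in BA (5 and 2 at an unadjusted p under 0.05 in edgeR, 1 and 0 by DESeq2, 2 and 1 without 84K BA replicate 3 or *PagDET2*-OE BA replicate 3). In XY 2 were higher and 4 lower, against 9.34% of all genes called lower, with a median log2 fold change of -0.17 and 5 of 19 above 0. Higher ones were 1 without 84K XY replicate 1 or 2 or *PagDET2*-OE XY replicate 2. The cambium markers summed to 717 to 765 FPKM in 84K XY and 665 to 701 FPKM in *PagDET2*-OE XY. These sums in XY are on FPKM scaled by library total. On log2(FPKM + 0.1) the median gene in XY had a genotype change of -0.06, against -0.005 with TMM. In XY 3 cambium markers and 1 phloem marker were called at least 2-fold lower, against 415 of all 21273 genes tested. The part of tissue makeup in the change of either copy was not tested.

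Other members of the COBRA family were tested in the same fits. Of 13 other family members 6 passed the filter in PS and 4 in each of the other domains, and 0 were called in either direction by edgeR's quasi-likelihood test or by DESeq2. At an unadjusted p under 0.05 in edgeR, 0 passed in PS, 2 were higher in BA, and 1 was higher and 1 lower in XY. In XY, 1 was called higher without 84K XY replicate 3 or *PagDET2*-OE XY replicate 1, and 1 lower without *PagDET2*-OE XY replicate 3. *Potri.015G060000*, a *COB* copy that lies 753 bp from the chromosome 15 copy, ran opposite to it over the domains, with 260 ± 13.6 FPKM in PS of 84K, 139 ± 3.17 in its BA and 64.2 ± 2.01 in its XY (SD, n = 3). COB itself is known in Arabidopsis for oriented cell expansion in growing organs. *Potri.004G117100*, a *COBL1* copy 517 bp from the chromosome 4 copy, was at 7.38 ± 0.658 FPKM in PS and 5.27 ± 1.10 in BA of 84K. Its log2 fold change in XY was -0.27 (edgeR adjusted p = 0.295), against 1.22 for the chromosome 4 copy beside it. *COBL7* (*Potri.010G001100*), at 9.86 ± 1.38 FPKM in 84K XY, differed between genotypes by log2 values of 0.20 in BA and 0.31 in XY (edgeR adjusted p = 0.122 and 0.086).

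Among the 5 gene models on each side of each copy, which were looked at after values had been seen, 3 others near the chromosome 4 copy were higher in XY of *PagDET2*-OE lines. These were the methyltransferase-like *Potri.004G116900* (log2 fold change 1.48, from 1.64 to 4.36 FPKM), the PLC-like phosphodiesterase *Potri.004G117500* (1.59, from 13.8 to 39.9 FPKM) and *CYP85A1* (*Potri.004G117700*, 1.17, from 4.75 to 10.4 FPKM), an enzyme of brassinosteroid synthesis whose model starts 109277 bp away. Their edgeR adjusted p-values were at most 2.33e-04. They were 3 of 7 neighbours tested there in XY, where 10% of all genes were called higher. The 4 others, *COBL1* among them, and *COB* beside the chromosome 15 copy were not called in any domain.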

How the data were processed

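Per the labels and the study's methods, the authors aligned reads with HISAT2 (version 2.0.4) to *P. trichocarpa* v3.1 and counted fragments per gene with StringTie (version 1.3.0). Since 84K is a hybrid of other species, reads of its alleles may have aligned unequally, and counts of similar copies may be split. The deposited table holds these counts, whole numbers per gene and library, and FPKM that the authors computed. With a factor per library taken out, FPKM per count within a gene varied by a median of 8.18e-05% (coefficient of variation, 9931 genes). That value cannot show whether TMM scaling was used, since such a factor would remove it. For the chromosome 4 copy, 48 of 8407928 counts in 84K BA replicate 1 were given as 4.04 FPKM. In *PagDET2*-OE XY replicate 3, 10424 of 12052409 counts were given as 612 FPKM. These FPKM are in proportion to count over library total, without TMM scaling.

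Counts were filtered with filterByExpr (minimum count 10, minimum total 15), scaled by TMM and tested with edgeR (version 4.0.16, R 4.3.3) by robust quasi-likelihood and adjusted by Benjamini-Hochberg over the whole table of tested genes: genotypes within a domain (6 libraries), domains within a genotype (9 libraries) and interactions (18 libraries). Genes at an adjusted p of at most 0.05 were called. Copy ratios were compared by exact permutation tests in Python 3.11.15; 3 of 7 planned tests involved PS and gave no ratio. The study names 3 trees for the *PagDET2*-OE lines and the wild type, without tying a library to a tree or line, so p-values measure the spread between these samples. DESeq2 (version 1.42.0) and limma (version 3.58.1) served as alternatives. The fits were tested on simulated data.

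The members and the gene lists, matched on symbols in the table, were chosen with earlier results of these data known, and unrelated genes with the same symbol were taken out after the data were seen. Named were both copies, *DET2*, genes of the COBRA, secondary wall cellulose and *FLA* lists, of other lists the 2 most abundant members, and the 5 genes nearest to each copy by correlation (mean of at least 5 CPM); *WUS*, *XSP1*, *BFN1* and the neighbours of the copies were added after their values were seen. Promoter and protein sequences were not used here.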

Additional observations from a re-analysis of the deposited data

Results flagged for a closer look

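The effect of *PagDET2* overexpression on the chromosome 15 copy differed between domains by the interaction test of edgeR. Its log2 fold change in XY exceeded that in BA by 0.96 and its log2 fold change in PS exceeded that in BA by 0.996.

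The same test set XY apart from BA for 7 of 10 genes of secondary wall cellulose. The log2 fold change was higher in XY by 0.83 for *CTL2* (*Potri.010G141600*), 0.57 for *CESA4* (*Potri.002G257900*) and 0.40 for *KOR1* (*Potri.003G151700*). For copies of *CESA7* the difference was 0.88 (*Potri.018G103900*) and 0.62 (*Potri.006G181900*), and for copies of *CESA8* it was 0.95 (*Potri.011G069600*) and 0.67 (*Potri.004G059600*). Over all genes tested, 1776 of 25726 were called in this direction.

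Of the 24 *FLA11* and *FLA12* genes tested, 6 differed in this direction and 0 in the other (8 and 0 by DESeq2, 9 and 1 at an unadjusted p under 0.05 in edgeR). The differences were 0.68 for *Potri.019G122600* and 0.64 for *Potri.009G012200*, both *FLA12*, and 0.75 for *Potri.013G151366*, 1.22 for *Potri.006G129200*, 0.57 for *Potri.015G129400* and 0.78 for *Potri.012G127900*, all *FLA11*. The chromosome 4 copy, with 0.50, was not among the genes called.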

How the results depend on the processing

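Of 17 fold changes and interactions of the copies, 13 kept their direction and side of the threshold under every alternative run. The 4 copy ratios kept their direction, and since their exact permutation p-values were the smallest possible in every setting, their side of the threshold says nothing about stability. The alternatives were DESeq2's size factors or test, no or a stricter filter on low counts, no robust fit, limma on log2(FPKM + 1) or log2(FPKM + 0.1), a replicate block, replicate 3 as a batch, 1 fit of all 18 libraries, counts in place of FPKM for the ratio, and leaving out each replicate. The cause of the shifts below was not tested.

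The rise of the chromosome 4 copy in BA had log2 fold changes of 0.69 and 0.78 with limma at pseudocounts of 1 and 0.1, with adjusted p-values of 0.0542 and 0.056, and of 0.57 to 0.87 with each replicate left out (adjusted p = 0.0232 to 0.0884). The rise of the chromosome 15 copy in XY was 0.12 with limma at either pseudocount (adjusted p = 0.201 and 0.2), 0.21 in 1 fit of all libraries (adjusted p = 0.0531), and 0.11 to 0.22 with each replicate left out (adjusted p = 0.0155 to 0.12). The excess of the genotype effect in XY over BA for the chromosome 4 copy passed with the test of DESeq2 (0.52, adjusted p = 0.0207) and ranged from 0.40 to 0.69 with each replicate left out. For the chromosome 15 copy, the difference between XY and PS, near 0, ranged from -0.12 to 0.11 with each replicate left out and never passed. The limma values are on the log2(value + pseudocount) scale, which lowers changes of low genes. The chromosome 15 copy was not low in XY. Limma also used FPKM scaled by library total in place of TMM. Over all genes, the genotype change in XY had a median of -0.05 and -0.06 with limma, against -0.005 with TMM.

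Libraries of the same number in the 2 genotypes were not treated as pairs, since no source ties them and not every correlation was over 0.1. Their deviations correlated by 0.0143 to 0.124 in PS, 0.0521 to 0.0827 in BA and 0.0135 to 0.0290 in XY, and 3, 6 and 6 of 6 libraries correlated best with their own number, a hint of weak pairing from the data and not from the design. Between domains of 84K, 6 of 6 did so for PS with BA, 6 for XY with PS and 2 for XY with BA. In *PagDET2*-OE lines these were 2, 2 and 4 of 6. A replicate block gave 0.78 in BA (adjusted p = 0.00292) and 1.22 in XY for the chromosome 4 copy, and -0.74 in BA and 0.18 in XY (adjusted p = 4.28e-05) for the chromosome 15 copy, and changed none of the calls for the copies. It raised the genes called over the table from 3590 to 5491 in PS and from 2728 to 4348 in BA. Replicate 3 as a batch gave 5992 and 5264, DESeq2 called 2251 in PS, and leaving out a replicate gave 2106 to 3606 in PS and 1435 to 2817 in BA.

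Of the list counts, secondary wall cellulose genes called lower in BA were 5 to 7 and *FLA11* and *FLA12* genes called higher in XY were 18 to 22 over the alternatives. With limma, 3 secondary wall cellulose genes, 6 lignin genes and 2 regulators were called higher in XY, and with the replicate block 7, 19 and 9. Other COBRA family genes, of which 0 were called, had 1 lower in PS, 1 higher in BA and 1 each way in XY with the block, 1 lower in PS, 2 higher in BA and 1 each way in XY with replicate 3 as a batch, 1 lower in XY with limma and 1 higher in XY in 1 fit of all libraries. Low counts limit the chromosome 4 copy in BA, and a count of 0 leaves up to 3 counts per PS library.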
